A study of Mus musculus with 4 samples.

Results

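The genes described here are those of epidermal terminal differentiation together with the S100 family of small calcium-binding proteins, measured in terminal end buds of the mouse mammary gland with and without the zinc finger repressor Ovol2. They were chosen by gene symbol from a whole-transcript Affymetrix array: the S100a genes and S100b, the small proline-rich proteins (Sprr), the late cornified envelope proteins (Lce), the transglutaminases Tgm1 to Tgm7, the tissue kallikreins (Klk), and 10 named genes of the cornified envelope and the suprabasal layers. The rule matched 85 genes of the RefSeq table, and 75 of them, of 19938 genes on the array in all, had a probe set annotated to that gene alone. The other 10, among them Flg, Klk1 and the 3 Sprr2a genes, had none. The 75 were 15 S100 genes, 13 Sprr, 19 Lce, 7 Tgm, 12 Klk and 9 of the named genes.

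Terminal end buds are the bulbous growing tips of the pubertal ducts, and they were dissected from female C57/BL6 mice whose age is given as 4.5 weeks in the sample labels and as 24 to 25 days in the series text. There were 2 control arrays, each of RNA pooled from 2 mice that carried 1 floxed and 1 wild-type Ovol2 allele. Per the protocol such mice could also carry K14-Cre, which the control samples' own labels do not list. There were 2 knockout arrays, each of RNA pooled from 3 mice with 1 floxed and 1 null Ovol2 allele and K14-Cre (Ovol2flox/-;K14-Cre). The keratin 14 promoter that drives this Cre is active in basal epithelium of the gland and also in the skin, and the null allele is carried by all cells. The labels call the arrays biological replicates, and pool size went with genotype.

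The cornified envelope is the cross-linked protein shell that replaces the plasma membrane of a dying keratinocyte. Involucrin, the small proline-rich proteins and the late cornified envelope proteins are its building blocks, transglutaminases join them, and kallikreins are secreted serine proteases, several of which cut the adhesions between shed cells. Most of these genes and most S100a genes lie in 1 cluster, the epidermal differentiation complex, on mouse chromosome 3. S100 proteins bind calcium through EF-hands and then bind partners such as annexins; several are made by simple epithelia, including the mammary gland, while others are known from neutrophils, hair or stroma.

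Values are given as log2(signal + 16) after quantile normalization, and a difference is knockout minus control on that scale. Levels of different genes cannot be compared, since each comes from its own probe set. A gene was tested if its mean over the 4 arrays reached the 40th percentile of all genes, a log2 value of 7.97, which left 11963 genes and 27 of the 75 members. Without detection calls, a gene under that level could not be told from background. Tests are from limma's moderated fit across all tested genes with Benjamini-Hochberg adjustment and a threshold of 0.05. Values after ± are limma's moderated SEs of the difference with n = 2 arrays per group. They draw more on the variance of other genes than on the gene's own arrays.

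Among the 27 members tested, 2 fell, 0 rose and 25 missed the threshold. The members that fell were S100a14 and Lypd3. By the same limma fit, 10.7% of all tested genes passed, 6.29% as higher and 4.45% as lower, and the members' share of 7.41% was no larger. On the deposited scale, without quantile normalization, 2 members passed as higher and 5 as lower, and 1526 of all 11963 genes, or 12.8%, passed. In that fit limma took the variance from the trend alone and did not use each gene's own spread. At an unadjusted p under 0.05, 1 member was higher and 6 were lower, against 13.1% and 12.4% of all tested genes. Both knockout arrays lay below both control arrays for 9 tested members, a share of 33.3% against 29.9% of all tested genes, and above them for 3 members, 11.1% against 26.4%. The median difference of the tested members was -0.13, against -0.02 for all tested genes. Without control replicate 1 it was -0.015 against -0.03, without knockout replicate 1 it was -0.045 against -0.03, and without control replicate 2 it was -0.23 against -0.0079. Over all 75 members, dim ones included, 57 differences were below 0, or 76% against 62.3% of all genes, with a median of -0.13 against -0.05. These 2 sets differ in brightness, since 48 of the 75 members but only 7975 of the 19938 genes were under the filter. Among tested genes alone the share below 0 was 55.7%, and among tested members it was 74.1%.

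**Figure D1:**
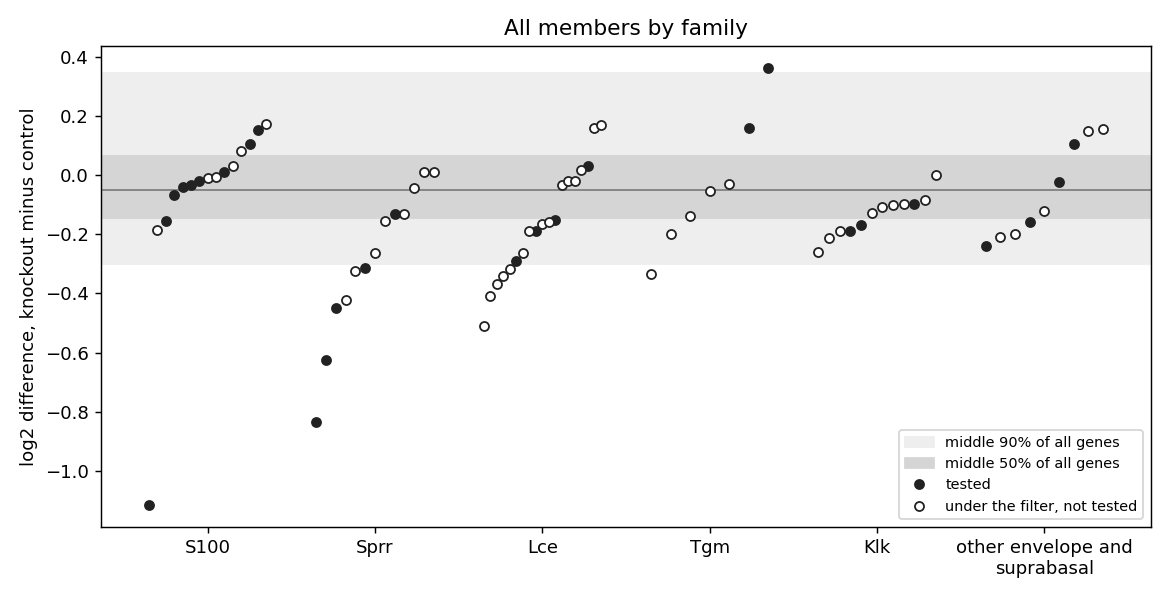
Log2 difference (knockout minus control) of each of the 75 members, by family, with filled points for the 27 tested members and open points for the 48 under the filter. The shaded bands hold the middle 50% and the middle 90% of all 19938 genes; S100a14 and Sprr1a lie lowest, at -1.11 and -0.83, and Tgm1 highest, at 0.36.

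The luminal keratin gene Krt8 lay between 13.57 and 13.65 on the 4 arrays, and the basal keratin gene Krt5 between 11.07 and 11.47. Ovol2 itself read 8.05 and 8.31 on the control arrays and 7.85 and 7.73 on the knockout arrays. Its difference of -0.39 ± 0.16 did not pass (limma, adjusted p = 0.17), and both knockout values lay under the filter level of 7.97. Zeb1, read with Ovol2 as a check of the labels, was at 7.31 and 7.92 on the control arrays, under that level. It was at 9.53 and 9.72 on the knockout arrays, a difference of 2.01 ± 0.18 (limma, adjusted p = 0.000446). Markers of other cell types moved with genotype: 13 of 14 tested fibroblast markers rose, with a median difference of 1.22 and a summed linear signal of 13143 and 14067 in the controls against 28512 and 34229 on the knockout arrays. Of the basal epithelial markers, 5 of 8 tested rose and 1, Trp63, fell (median 0.57). Krt14 had a difference of 0.43 ± 0.15 that did not pass (limma, adjusted p = 0.0993). Of the 8 differences 2 were below 0, that of Trp63 and that of a gene that did not pass. The 5 risers were among Krt5, Acta2, Myh11, Cnn1, Oxtr and Mylk, most of which are contractile genes. Whether their rise came from basal epithelium was not tested. Of the endothelial markers 5 of 10 rose (median 0.62), of the adipocyte markers 4 of 5 rose (median 0.58), and of the lymphocyte markers 2 of 4 fell (median -0.60). Markers of hair follicle differed between arrays within each group, as given below for S100a3. In pooled tissue, fewer cells of a type and less RNA per cell cannot be told apart, and what share these tissues have in the differences below was not tested.

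S100a14 fell more than any other tested member. S100A14 is an EF-hand protein of epithelial cells, known from stratified and glandular epithelia. Its control arrays read 9.78 and 9.60 and its knockout arrays 9.12 and 8.03. Both knockout arrays lay below both controls, but they lay far from each other, 1.09 apart against 0.18 between the controls. The mean was 2.16-fold lower in the knockout, a difference of -1.11 ± 0.27 (95% CI -1.71 to -0.52, adjusted p = 0.0279). Its size rested on knockout replicate 2: leaving out knockout replicate 1 gave -1.66, and leaving out knockout replicate 2 gave -0.57. Both passed, in fits where limma took the variance from the trend alone and so did not use this gene's own spread. The call was lost without control replicate 1 (-1.02, adjusted p = 0.0861), with no mean-variance trend (adjusted p = 0.144), with a robust prior (adjusted p = 0.373) and with each probe set tested on its own (adjusted p = 0.086).

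None of the genes next to S100a14 in the cluster passed. S100a13 and S100a16 are its immediate neighbours in the RefSeq gene table. S100a13, whose protein is known for the release of growth factors that lack a signal peptide, read 9.65 and 9.61 on the control arrays and 9.74 and 9.83 on the knockout arrays, a difference of 0.15 ± 0.08 (95% CI -0.02 to 0.32). S100a16 read 11.27 and 11.18 against 11.18 and 11.14, a difference of -0.07 ± 0.06. S100a1, next to S100a13, is a calcium-dependent regulator best known from muscle. It read 12.10 and 12.09 against 12.24 and 12.16, a difference of 0.11 ± 0.05. None of these 3 passed (limma, adjusted p = 0.248, 0.495 and 0.224).

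S100a11, the brightest S100 gene by mean signal, did not pass. It read 13.17 and 13.16 on the control arrays and 13.20 and 13.15 on the knockout arrays. Its difference was 0.01 ± 0.04 (95% CI -0.09 to 0.11), and a second probe set of the gene gave -0.03. S100a10, the partner of annexin A2 at the plasma membrane, read 12.96 and 12.85 against 12.87 and 12.87, a difference of -0.03 ± 0.05 (95% CI -0.15 to 0.08). S100a6, the ligand of the calcyclin-binding protein, read 12.59 and 12.57 against 12.50 and 12.35. All 4 of its values lay close together, with both knockouts below both controls, and the difference of -0.15 ± 0.06 did not pass (adjusted p = 0.116). It was -0.23 when knockout replicate 1 was left out. It passed on the deposited scale (adjusted p = 0.0459), in a fit where limma took the variance from the trend alone. S100a7a and S100b, the S100 gene of Schwann cells and other glia, had differences of -0.02 ± 0.15 and -0.04 ± 0.11.

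Of the other 6 S100 genes, all under the filter, S100a3 varied most, and it did so within the groups. S100A3 is a protein of the hair cuticle. It read 6.63 and 8.12 on the control arrays and 8.18 and 6.63 on the knockout arrays, so that 1 array of each genotype was high and the other low, with a group difference of 0.03. Genes of the inner root sheath, the layer that moulds the growing hair, were high and low on the same arrays. The sheath keratin gene Krt71 read 6.89 and 10.30 on the control arrays and 11.53 and 6.95 on the knockout arrays. Krt25 read 5.67, 9.50, 10.72 and 5.31 in the same order, Krt27 6.50, 8.07, 9.09 and 6.53, Krt73 7.24, 7.98, 8.19 and 7.03, and the trichohyalin gene Tchh 6.63, 9.10, 10.14 and 6.54. Control replicate 2 and knockout replicate 1 were thus the high arrays for each of these genes, whereas the epidermal keratin genes Krt1 (9.25, 9.25, 9.12 and 9.13) and Krt10 (8.58, 8.48, 8.33 and 8.41) did not separate these arrays from the other two. Krt25, Krt27 and Krt73 had means under the filter. The hair genes were chosen from the fixed marker and envelope lists after their values were seen, and the pattern is a description. How much hair or skin tissue each array held was not measured apart from these genes, and its part in the values of S100a3 was not tested.

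**Figure D2:**
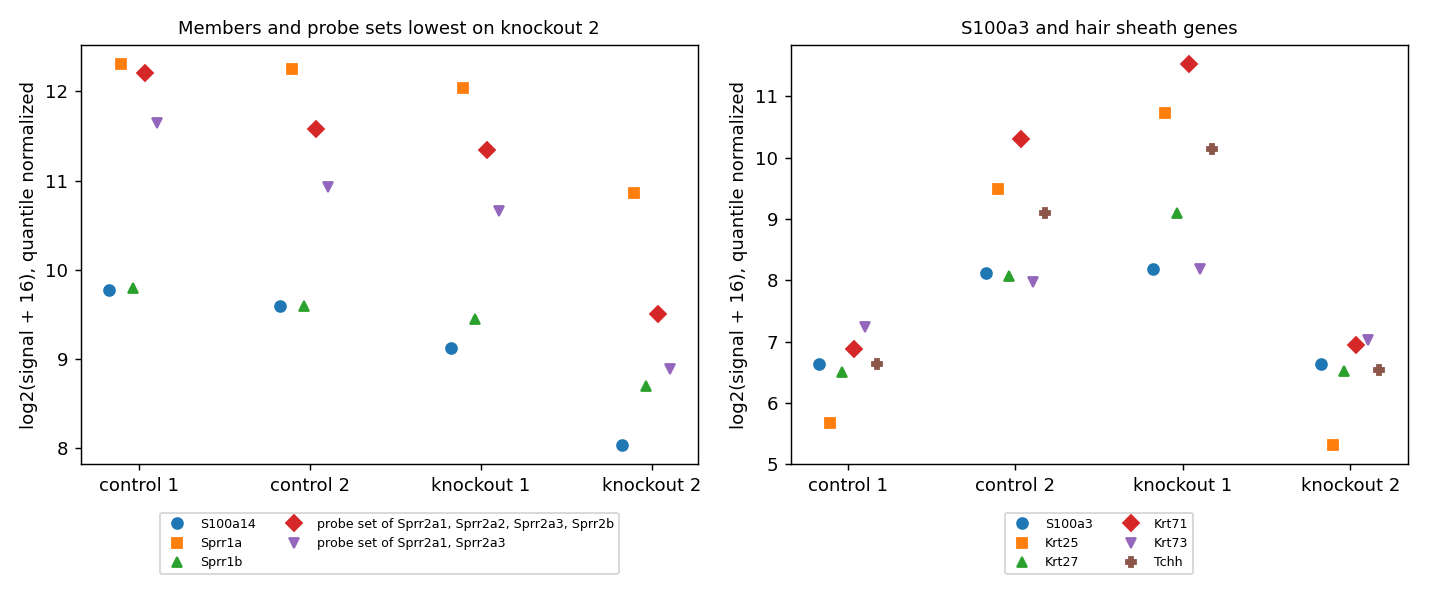
Log2(signal + 16) on each of the 4 arrays, 1 point per array. On the left, S100a14, Sprr1a, Sprr1b and the 2 distinct probe sets shared by Sprr2 genes were all lowest on knockout 2; on the right, S100a3 and 5 genes of the hair sheath were high on control 2 and knockout 1 and low on the other two arrays.

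The alarmin genes S100a8 and S100a9, which neutrophils express strongly, lay under the filter on every array, at 6.97 and 7.25 on the control arrays and 6.94 and 7.26 on the knockout arrays for S100a8, and between 7.22 and 7.36 for S100a9. The differences of S100a8 and S100a9 were -0.01 each. Of 14 neutrophil markers on the array only Lcn2 and Ltf, which mammary epithelium also makes, passed the filter. Of these 2, 1 rose past the threshold, and their differences were 0.15 and 1.43, in no given order. The defining genes Ly6g and Mpo read 6.83 or lower and 7.32 or lower. S100a4, often used as a fibroblast marker, read 7.51 and 7.40 on the control arrays and 7.49 and 7.58 on the knockout arrays, a difference of 0.08 and under the filter, in the same arrays in which most fibroblast markers rose. S100a2 and S100a5 had differences of -0.18 and 0.17, neither tested.

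None of the 5 tested small proline-rich genes passed the threshold. All 5 differences were below 0, as were 55.7% of those of all tested genes; Sprr4 turned to 0.05 and Sprr2g was -0.01 without control replicate 1. SPRR1A and SPRR1B are cross-linked into the envelope as flexible bridges and are also induced by stress in epithelia that do not cornify. Sprr1a read 12.31 and 12.26 on the control arrays and 12.04 and 10.86 on the knockout arrays. Knockout replicate 2 lay far below the other 3 arrays, and the difference was -0.83 ± 0.27 (95% CI -1.45 to -0.22, adjusted p = 0.0843). Leaving out knockout replicate 1 gave -1.42, and leaving out knockout replicate 2 gave -0.25. Sprr1b read 9.80 and 9.59 against 9.44 and 8.69, a difference of -0.63 ± 0.20 (adjusted p = 0.0733). It was -1.0 when knockout replicate 1 was left out and -0.25 when knockout replicate 2 was left out. For both genes the groups did not overlap and knockout replicate 2 was again the lowest array. Both passed on the deposited scale and after median centring, in fits where limma took the variance from the trend alone.

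For Sprr2d and Sprr2g, control replicate 1 was the array that stood apart. Sprr2d read 9.13 and 8.44 on the control arrays and 8.26 and 8.42 on the knockout arrays, a difference of -0.45 ± 0.20 (adjusted p = 0.192). Leaving out control replicate 1 gave -0.10, and leaving out control replicate 2 gave -0.79 (adjusted p = 0.0111). Sprr2d also passed on the deposited scale, in a fit where limma took the variance from the trend alone. Without knockout replicate 2 its difference was -0.53. Sprr2g read 8.45 and 7.85 against 7.80 and 7.87, with a difference of -0.32 ± 0.20 (adjusted p = 0.378), and passed the filter only through control replicate 1. Sprr4 had a difference of -0.13 ± 0.14. The 8 Sprr genes under the filter had differences between -0.42 (Sprr2i) and 0.01 (Sprr2h and Sprr3). Sprr2 genes are near-identical copies, so signal assigned to 1 of them may come from another.

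Probe sets shared by the Sprr2a genes, which the selection by single symbol leaves out, were named after their values were seen and showed larger differences than any tested Sprr member. A probe set annotated to Sprr2a1, Sprr2a2, Sprr2a3 and Sprr2b read 12.21 and 11.58 on the control arrays and 11.34 and 9.50 on the knockout arrays. A probe set of Sprr2a1 and Sprr2a3 read 11.64 and 10.93 against 10.66 and 8.89, and a further probe set of the same pair held identical values and was counted once. In both, knockout replicate 2 lay lowest, and both controls lay above both knockouts. In a limma fit over probe sets, in which 3.72% of 21334 passed, the differences were -1.47 ± 0.50 (adjusted p = 0.149) and -1.51 ± 0.49 (adjusted p = 0.139). Leaving out knockout replicate 2 gave -0.56 and -0.63, and leaving out knockout replicate 1 gave -2.39 for both, past the threshold.

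The promoters of the Sprr genes share motifs that the choice of members did not use. Of these promoters 3 are printed here, those of the tested Sprr genes with the most negative differences, none of which passed the threshold. Each sequence is the 250 bases before the annotated start, 5′ to 3′ on the gene's strand, from RefSeq on GRCm38.p6, which is not known to be the build of the array's probe annotation. Capitals mark TGANTCA, a loose pattern with any middle base that takes in the site bound by AP-1, a dimer of Fos and Jun proteins. They also mark TATAAA, the core of the TATA box. The Sprr1b match to the loose pattern is TGAATCA, and those of Sprr1a and Sprr2d are TGAGTCA.
Sprr1a (GRCm38.p6, chr3:92485882-92486131, minus strand): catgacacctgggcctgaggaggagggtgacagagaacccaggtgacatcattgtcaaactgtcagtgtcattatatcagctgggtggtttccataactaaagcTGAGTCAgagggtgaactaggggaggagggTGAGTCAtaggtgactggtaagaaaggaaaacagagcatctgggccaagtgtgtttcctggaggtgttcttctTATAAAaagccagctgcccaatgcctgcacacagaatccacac
Sprr1b (GRCm38.p6, chr3:92438780-92439029, minus strand): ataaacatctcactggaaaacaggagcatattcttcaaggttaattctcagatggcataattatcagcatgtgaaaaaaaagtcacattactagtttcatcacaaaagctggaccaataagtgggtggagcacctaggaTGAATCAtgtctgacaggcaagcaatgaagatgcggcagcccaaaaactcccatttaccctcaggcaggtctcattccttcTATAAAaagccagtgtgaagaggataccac
Sprr2d (GRCm38.p6, chr3:92338890-92339139, plus strand): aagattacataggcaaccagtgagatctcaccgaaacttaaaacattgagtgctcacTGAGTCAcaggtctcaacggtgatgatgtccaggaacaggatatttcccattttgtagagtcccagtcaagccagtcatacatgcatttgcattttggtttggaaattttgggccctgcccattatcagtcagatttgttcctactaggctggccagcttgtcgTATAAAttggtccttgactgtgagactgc
Sprr1a holds 2 copies of TGANTCA, whose first bases lie 146 and 116 bases before the start. Sprr1b holds 1 copy, 111 bases before the start, and Sprr2d 1 copy, 193 bases before the start. Of 75 promoter windows of the members (67 of the 75 genes matched an entry, some with several), 16 held TGANTCA, or 21.3% against 6.75% of all 32851 windows. The share was 9 of 11 for Sprr genes, 2 of 16 for S100 genes, 0 of 18 for Lce and 0 of 14 for Klk genes. Many of the Sprr windows belong to the near-identical Sprr2 genes, so these windows are not independent. TATAAA was found in 10 of 11 Sprr windows and in 12.4% of all windows. CCGTTA, a core that Ovol proteins are known to bind, was in 2.18% of all windows and in 0 of the 75 member windows. S100a14, S100a10, Sprr2g and Tgm2 were among the members without a promoter entry, so their promoters were not searched. All 3 motifs were searched on both strands; TGANTCA reads the same on both and was counted once, and no 2 matches overlapped in the printed windows. A match describes letters in this window only.

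Of the named envelope and suprabasal genes, Ivl, Cnfn and Sbsn had differences smaller than their SEs. Ivl, the gene of involucrin, on which the envelope is first laid down, read 8.41 and 8.16 on the control arrays and 8.21 and 8.30 on the knockout arrays (difference -0.02 ± 0.14). Cnfn, which encodes cornifelin, had a difference of -0.16 ± 0.16, and Sbsn, the suprabasin gene, 0.11 ± 0.14, and neither passed (limma, adjusted p = 0.583 and 0.687). Hrnr, Rptn and Flg2, the filaggrin-type genes measured, read between 6.07 and 7.62 and were under the filter, as were the means of Krtdap and Calml3. Of these 5, the one with the largest difference was Rptn (-0.21), not tested.

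Lypd3 was the other member that fell, by a small and even amount. It encodes a GPI-anchored surface protein of the Ly6 family that is found in stratified epithelia. Its control arrays read 10.68 and 10.64 and its knockout arrays 10.42 and 10.41, so that each pair lay close together and the pairs did not overlap. The difference was -0.24 ± 0.06 (1.18-fold lower, 95% CI -0.37 to -0.11, adjusted p = 0.0312). It ranged only from -0.26 to -0.22 when any 1 array was left out, but the call was lost without control replicate 1 (adjusted p = 0.203) and without control replicate 2 (adjusted p = 0.0721). It was also lost on the deposited scale (adjusted p = 0.102), with median centring (adjusted p = 0.282), with no filter (adjusted p = 0.0549), with no trend (adjusted p = 0.114) and over probe sets (adjusted p = 0.0807). Its promoter is shown for contrast with those of the Sprr genes, since none of the 3 motifs was found in it.
Lypd3 (GRCm38.p6, chr7:24636320-24636569, plus strand): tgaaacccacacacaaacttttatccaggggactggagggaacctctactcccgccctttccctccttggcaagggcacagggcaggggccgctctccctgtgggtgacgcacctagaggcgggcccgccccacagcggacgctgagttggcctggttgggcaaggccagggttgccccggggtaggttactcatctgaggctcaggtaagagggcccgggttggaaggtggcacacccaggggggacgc

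Of the late cornified envelope genes, which encode small proteins rich in glycine and cysteine that are laid down late in cornification, 4 of 19 passed the filter and none of these passed the test. Lce1j read 9.21 and 8.95 on the control arrays and 8.61 and 8.96 on the knockout arrays, a difference of -0.29 ± 0.14 (limma, adjusted p = 0.23). The groups overlapped, and the difference was -0.47 without knockout replicate 2 and passed there (adjusted p = 0.00849). Lce1k, Lce1e and Lce1b had differences of -0.19 ± 0.16, -0.15 ± 0.16 and 0.03 ± 0.16. The 15 Lce genes under the filter had differences between -0.51 (Lce3c) and 0.17 (Lce3b). Lce genes are close copies too, and a probe set shared by 6 Lce3 genes gave -0.06 ± 0.15.

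Tgm1 was the highest of the tested members relative to control, though not past the threshold. Transglutaminase 1 is the membrane-bound enzyme that cross-links the cornified envelope. It read 9.56 and 9.91 on the control arrays and 10.09 and 10.11 on the knockout arrays, with both knockouts above both controls. The difference was 0.36 ± 0.11 (1.29-fold higher, 95% CI 0.12 to 0.60, adjusted p = 0.0589). Control replicate 1 was the array that stood apart: the difference was 0.19 without it and 0.54 without control replicate 2 (adjusted p = 0.00524). Tgm1 passed on the deposited scale (adjusted p = 0.00389) and when either knockout array was left out. Tgm2, the widely expressed tissue transglutaminase, read 12.59 and 12.90 against 13.07 and 12.75, with overlapping groups and a difference of 0.16 ± 0.11 (adjusted p = 0.416). Tgm2 passed on the deposited scale (adjusted p = 0.00258), again with the variance from the trend alone. Its difference was 0.32 without knockout replicate 2 and 0.00 when either control replicate 1 or knockout replicate 1 was left out. Tgm3 to Tgm7 lay under the filter, and Tgm5 had the largest of their differences, -0.33.

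The tissue kallikreins were dim, with 3 of 12 tested and none past the threshold. Klk7, the chymotrypsin-like protease of skin shedding, read 8.46 and 8.20 on the control arrays and 8.23 and 8.24 on the knockout arrays (difference -0.10 ± 0.14). Klk10 and Klk12 had differences of -0.17 ± 0.14 and -0.19 ± 0.14, each with both knockouts below both controls. Klk5, which can start the protease cascade of the skin, lay under the filter at 6.57 to 6.82. The 9 kallikreins under the filter had differences from -0.26 (Klk15) to about 0 (Klk8).

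**Figure D3:**
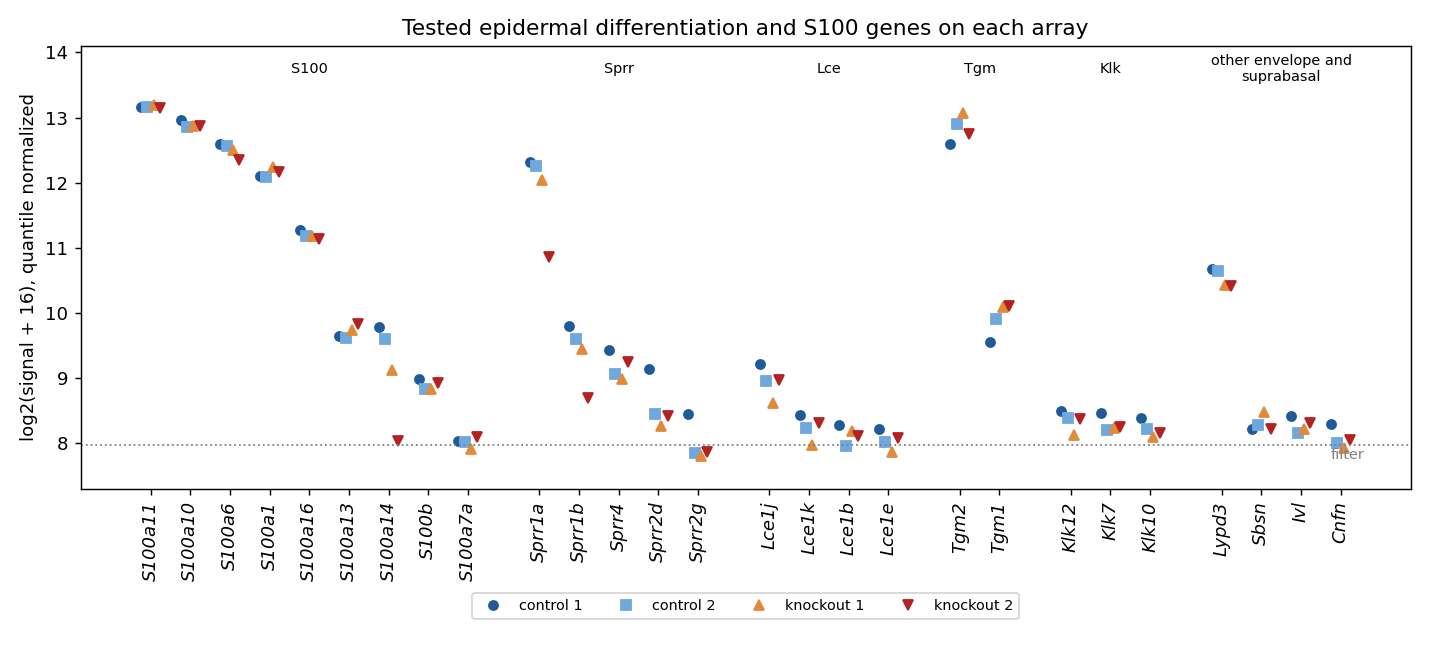
Log2(signal + 16) of the 27 tested members on each array, grouped by family, with the filter level of 7.97 as a dotted line. For most genes the 4 arrays lie together. The knockout 2 points of S100a14, Sprr1a and Sprr1b lie apart below. The control 1 points of Sprr2d and Sprr2g lie above their other arrays, and the control 1 point of Tgm1 lies below its other arrays.

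**Figure D4:**
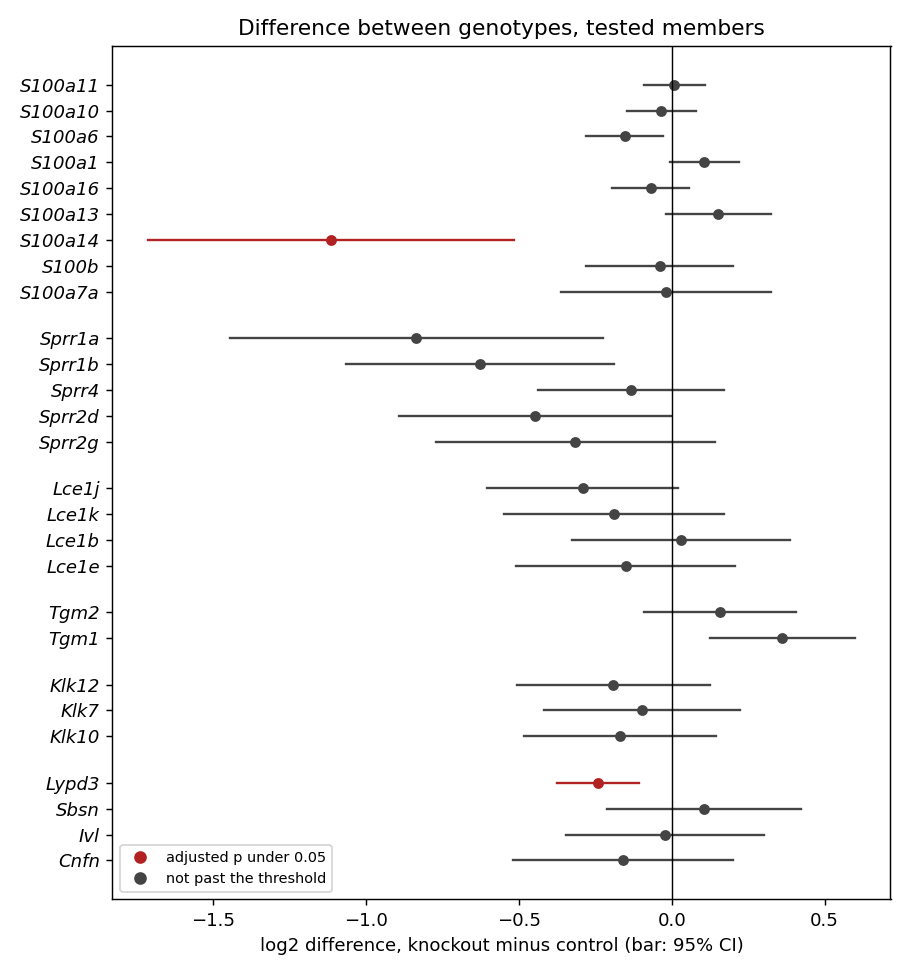
Log2 difference (knockout minus control) with its 95% confidence interval from limma for each of the 27 tested members, with red for the 2 past the threshold. The widest intervals are those of Sprr1a and S100a14, whose knockout arrays differed most, and those of S100a10 and S100a11 are among the narrowest.

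Genes that act with these families moved in both directions. Of 24 tested regulators of terminal differentiation, 4 rose and 2 fell, with a median of 0.04; of all tested genes, 6.29% rose and 4.45% fell, and this background holds for the next 3 lists too. Klf4, a transcription factor of barrier formation, read 10.05 and 10.26 on the control arrays and 10.56 and 10.99 on the knockout arrays and rose by 0.62 ± 0.12 (adjusted p = 0.0135), a call lost with a robust prior and over probe sets. Rora rose by 0.60 ± 0.11, Grhl1 by 0.28 ± 0.08 and Cebpb by 0.28 ± 0.07. Trp63, the p63 gene of the basal layer, fell by 0.36 ± 0.06 while 5 other genes of the basal marker list, mostly contractile genes, rose. The Notch ligand gene Jag2 fell by 0.37 ± 0.07. Rora, Grhl1, Cebpb and Trp63 did not pass without control replicate 1, nor Cebpb without control replicate 2 or knockout replicate 2. After median centring Grhl1, Cebpb, Trp63 and Jag2 did not pass. Fibroblast markers rose on the same arrays, with the median of 1.22 given above, and their part in these differences was not tested.

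Among stress and suprabasal keratins, Krt6a and Krt23 fell, 2 of 12 tested, and 0 rose. Krt6a, which marks stressed epidermis and is also made in the end bud, read 10.34 and 10.46 on the control arrays and 9.77 and 9.17 on the knockout arrays. It fell by 0.93 ± 0.16 (limma, adjusted p = 0.00634), with knockout replicate 2 again the lowest array, and the call was lost with a robust prior. Krt23 fell by 0.59 ± 0.11 and did not pass without control replicate 1. Of 21 tested envelope and barrier genes outside the families, 1 rose and 2 fell: the cystatin gene Cst3 rose by 0.31 ± 0.06, the desmoplakin gene Dsp fell by 0.23 ± 0.06, and the cholesterol sulphotransferase gene Sult2b1 fell by 0.39 ± 0.10. Dsp and Sult2b1 did not pass without control replicate 2 or without knockout replicate 2, nor Sult2b1 without control replicate 1. The median of these 21 was -0.15.

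Of 15 tested receptors and partners of S100 proteins, 2 rose and 2 fell, with a median of -0.03. Anxa2, the partner of S100a10, read 12.27 and 12.25 on the control arrays and 12.26 and 12.21 on the knockout arrays, a difference of -0.03 ± 0.05. Ager, the receptor RAGE, and Tlr4, the receptor of the S100a8 and S100a9 proteins, had differences of -0.19 ± 0.15 and 0.02 ± 0.09. Cacybp, the calcyclin-binding protein gene, fell by 0.23 ± 0.06 (limma, adjusted p = 0.0416), and the calcium channel gene Trpv6 fell by 0.80 ± 0.17. Cacybp did not pass without control replicate 1 or without knockout replicate 2, nor Trpv6 without control replicate 2. The scavenger receptor gene Cd36 rose by 0.64 ± 0.09 and Fgfr1 by 0.36 ± 0.06, both of which stromal cells also express. With no mean-variance trend none of the calls in these 4 lists was kept, and after median centring Dsp, Sult2b1 and Cacybp did not pass either. Over probe sets, Grhl1, Cebpb, Dsp, Sult2b1, Cacybp and Trpv6 were lost as well as Klf4. With no filter, Grhl1, Sult2b1 and Cacybp were lost.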

How the data were processed

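The authors deposited 1 linear signal intensity per probe set for 4 arrays. Affymetrix Expression Console 1.1.1 and PLIER 2.0 are named in the submitters' processing notes. Settings not given in the sources used here include background correction, normalization and build. Array medians lay between 252 and 272. From these intensities, log2(signal + 16) was taken and quantile normalized over all 35556 probe sets. Probe sets with 1 gene symbol (21789, against 1621 with several and 12146 unlisted) were used, the one with the highest mean per gene. Genes under the 40th percentile of the mean were left out. The code was also run on simulated data in which each gene's spread followed the mean trend. That setting holds no genes with a wide spread of their own, such as S100a14 and Sprr1a on the knockout arrays. limma 3.58.1 in R 4.3.3 (lmFit, eBayes with trend) compared knockout with control over 11963 genes. The fit had 2 residual degrees of freedom and a prior of 7.58. The number of arrays limits the precision.

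The members, lists and tests were chosen with earlier results of these data known. Named were members past the threshold, in each family up to 5 tested members with the largest absolute difference, the brightest member, and the untested member with the largest difference. In the other lists, genes past the threshold and up to 4 tested genes with the largest difference could be named. Further members and list genes in the text were named after their values were seen. Alternatives covered normalization, offset, filter, variance prior, probe set choice, a replicate block and leaving out each array; 2 (a crossed block and a fit over probe sets) were added after seeing the data. The log2(signal + 16) scale understates fold changes of dim genes. The arrays were made from pools. SEs and p-values rest on the spread between pools, moderated towards that of other genes, and not on the spread between mice.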

Additional observations from a re-analysis of the deposited data

How the results depend on the processing

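Of the 27 tested members, 10 changed sign under at least 1 alternative, and 9 passed under at least 1. S100a14 and Lypd3 stayed lower under all 16. The main counts were 0 members higher, 2 lower and 1285 genes in all. In the values as deposited 2 members passed as higher and 5 as lower. With median centring 3 were lower and 753 genes passed. In these fits, and in those with the replicate block or without either knockout array, limma took the variance from the trend alone. With no filter 1 was lower of 75 tested, with a robust prior 1, and with no mean-variance trend 0 (188 genes in all). Without 1 array the members higher ranged from 0 to 2, those lower from 0 to 5 (0 without control replicate 1, 5 without either knockout array), all genes past the threshold from 476 to 2347, and the members' median from -0.23 to -0.015. Over probe sets, added after seeing the data, 0 members were lower and 793 probe sets passed. Fits without 1 array assume that the lone array varies like the other group. With the replicate number as a block, 2 members passed as higher, 6 as lower and 2246 genes in all, with 1 residual degree of freedom; same-numbered arrays deviated in opposite directions (r = -0.20 across genes), and nothing in the labels pairs them. With the crossed replicate block, which pairs control 1 with knockout 2 and control 2 with knockout 1 and was added after seeing the data, 1 member was lower and 1203 genes passed. The causes of these shifts were not tested. Dim signal limited 48 of the 75 members.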

Other observations

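Crct1, a cysteine-rich gene of the epidermal differentiation complex, read 8.70 and 8.37 on the control arrays and 10.31 and 8.29 on the knockout arrays, so that knockout replicate 1 alone stood high, and its difference of 0.77 ± 0.48 did not pass (limma, adjusted p = 0.358). Crnn, which encodes cornulin and lay under the filter, read 6.61, 7.24, 7.81 and 6.66 in the same order. The member Calml3, also under the filter by its mean, read 7.60, 7.78, 8.14 and 7.54. Crnn and Calml3 were thus highest on control replicate 2 and knockout replicate 1, the arrays on which S100a3 and the hair sheath genes were high. What these genes share was not tested, and all of them were picked after their values were seen.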
